A study of Mus musculus with 6 samples.

Results

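In whole-kidney mRNA, 10 genes of scavenging and lipid handling in macrophages were followed: the scavenger receptors Mrc1, Msr1, Cd163, Stab1 and Cd36, the lipid and apoptotic-cell sensors Trem2 and Mertk, the lysosome-associated glycoprotein gene Gpnmb, and the lipid carrier and lipase genes Apoe and Lpl. They were taken by their symbols, for their known functions, with earlier results of these data known. All 10 were present among the 55450 genes of the count table and among the 16592 genes tested. Wild-type male C57BL/6J mice, bought at 7 weeks of age and kept for 1 week before use, formed both groups (n = 3 mice each). The day 0 mice were controls, labelled as treated with 20% PEG, and the day 21 mice had received a daily gavage that held 0.16 g/kg of adenine and 2.4 g/kg of potassium oxonate. Oxonate blocks uricase and adenine injures the tubules, so the model joins raised uric acid to kidney damage, and the agents cannot be told apart here. The groups also differ by the 21 days between them, and age cannot be told apart from treatment. The labels of the day 21 mice do not mention PEG. The labels give each library as a replicate of its own, and total counts ran from 10963849 to 14333311 per library, at which a count of 3 corresponded to 0.179 to 0.309 normalized CPM (counts scaled to the library total by the TMM method).

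Macrophages clear debris, modified lipoproteins and dying cells through scavenger receptors and through bridging ligands that mark phosphatidylserine. Cholesterol and fatty acids taken in this way are stored in droplets or exported to acceptors such as APOE particles, and TREM2, signalling through the adaptor TYROBP, is known for sustaining a lipid-handling state of tissue macrophages. Several of the 10 genes are also transcribed outside macrophages. Lpl is made abundantly by adipocytes and muscle, Cd36 by endothelium and adipocytes, Stab1 by sinusoidal and lymphatic endothelium, and Apoe by hepatocytes and other cells. In bulk kidney, more cells of a type and more RNA per cell cannot be told apart.

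Of the 8 genes with a promoter window, Gpnmb, Trem2, Mrc1, Stab1 and Apoe held a searched motif, and these rose on day 21. Cd163, Cd36 and Mertk, which were not called higher, held none. The motifs differed between the genes, and the share of all promoters with any of the searched motifs was not computed. A link between motif and change was not tested. The windows of Gpnmb, Trem2 and Mrc1 are shown as examples. Each runs 5′ to 3′ on the plus strand of GRCm38.p6 from RefSeq, over 280 bases ending 30 bases after the annotated start at base 251. Capitals in Gpnmb (chr6:49036268-49036547) and Trem2 (chr17:48346151-48346430) mark the AP-1 type motif TGANTCA, and capitals in Mrc1 (chr2:14229164-14229443) mark the M-box core CATGTG on either strand.
Gpnmb: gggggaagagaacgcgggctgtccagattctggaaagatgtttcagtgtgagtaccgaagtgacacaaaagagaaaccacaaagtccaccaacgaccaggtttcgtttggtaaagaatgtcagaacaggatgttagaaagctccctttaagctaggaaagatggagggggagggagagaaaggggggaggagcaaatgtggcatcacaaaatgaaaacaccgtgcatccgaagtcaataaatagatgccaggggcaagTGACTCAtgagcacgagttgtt
Trem2: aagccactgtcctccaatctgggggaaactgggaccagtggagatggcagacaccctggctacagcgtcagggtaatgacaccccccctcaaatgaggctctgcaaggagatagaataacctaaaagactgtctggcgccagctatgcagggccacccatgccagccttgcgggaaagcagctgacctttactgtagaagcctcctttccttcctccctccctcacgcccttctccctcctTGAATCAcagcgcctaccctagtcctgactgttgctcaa
Mrc1: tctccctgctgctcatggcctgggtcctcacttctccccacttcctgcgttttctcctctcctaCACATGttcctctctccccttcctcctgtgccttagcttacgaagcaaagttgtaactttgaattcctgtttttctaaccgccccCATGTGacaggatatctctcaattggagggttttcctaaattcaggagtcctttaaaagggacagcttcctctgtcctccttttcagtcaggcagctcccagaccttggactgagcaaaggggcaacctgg
The Gpnmb match lay just after the RefSeq start, at bases 259 to 265, and the Trem2 match just before it, at bases 242 to 248. The GENCODE annotation used for gene positions starts Gpnmb further along the window, at chr6:49036546. By that annotation the Gpnmb match lies before the start. Of the 32851 promoters of the full 300-base length, 7.81% held TGANTCA and 14.2% held CATGTG on either strand. RefSeq windows were matched for 8 of the 10 genes, without Msr1 and Lpl. Besides Mrc1, Stab1 held CATGTG. No window of the 8 genes held CACGTG, present in 7.15% of promoters, or GAGGAAGT, the PU.1 type motif present in 3.2%. One of the 3 Apoe windows held TATAAA, which 13.6% of promoters held. The Gpnmb and Trem2 windows each held 1 match of the searched motifs.

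The 10 genes did not move as 1 group. Compared with day 0, expression of Gpnmb, Trem2, Msr1, Mrc1, Apoe and Stab1 was higher on day 21, while Lpl, Cd36 and Mertk were lower, and the difference of Cd163 did not pass the test. A gene was called differentially expressed where its adjusted p was below 0.05 and its fold above 1.5, with edgeR's quasi-likelihood test and Benjamini-Hochberg adjustment over all genes tested. By this rule 9 of the 10 were called, against 35.1% of all genes tested. The 6 that rose stood against a background of 19.6% and the 3 that fell against 15.5%. Gpnmb, Trem2 and Msr1 were below the filter's minimum count of 10 in every control and passed it through the day 21 mice. For these genes hardly any result other than a rise was possible, so their calls add little to the comparison with the background. The median log2 fold change of the 10 was 1.41, beside 0.03 over all genes tested. It includes Gpnmb, Trem2 and Msr1, as does the count of genes without overlap given next, so the same limit holds for both. In 9 of the 10 the values of the groups did not overlap, as in 57.1% of all genes tested. For each of these 9 the two-sided exact permutation test gave p = 0.1, the smallest that 3 mice against 3 allow, and for Cd163 it gave 0.5.

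**Figure D1:**
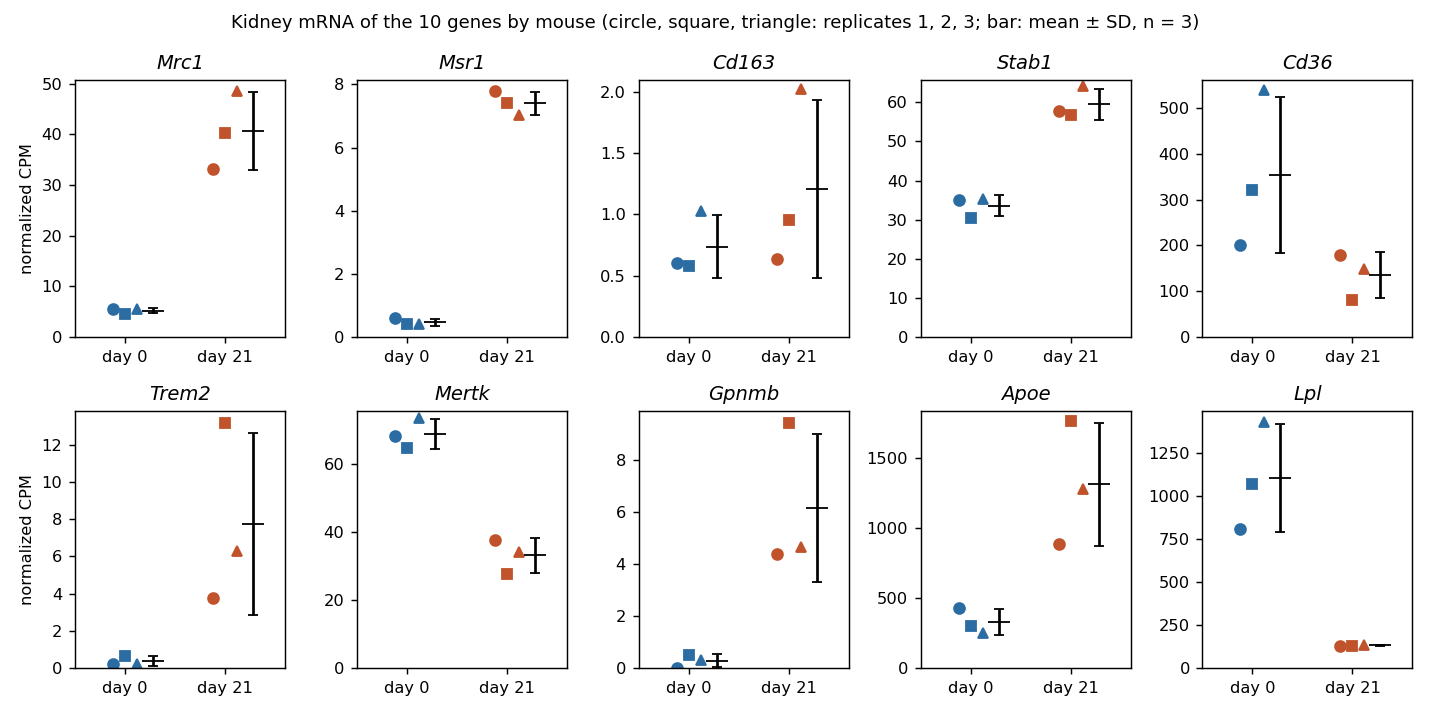
Normalized CPM (linear vertical axes from 0, one panel per gene) of each mouse on day 0 (blue) and day 21 (orange), with the mean ± SD beside the points (n = 3 mice per group). The groups overlap in Cd163, and the square, replicate 2, stands highest of the day 21 mice in Trem2, Gpnmb and Apoe.

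Among the receptors, Mrc1 (ENSMUSG00000026712.3; chr2:14229392-14332057, plus strand), the mannose receptor that binds glycans of glycoproteins and microbes, gave 55, 56 and 53 counts in the controls and 469, 675 and 794 in the treated mice. All day 21 mice were far above the narrow range of the day 0 mice. Its normalized level rose from 5.2 ± 0.505 to 40.7 ± 7.75 CPM (SD, n = 3), a log2 fold change of 2.97 with a standard error (SE) of 0.18 (adjusted p = 2.1e-06). Msr1 (chr8:39581685-39642673, minus strand), the class A receptor for modified lipoproteins, gave 6, 5 and 4 counts in the controls and 110, 124 and 115 in the treated mice. Near the limit of detection in every control, it was evenly raised in all 3 treated mice, with a coefficient of variation of 4.94%. The level went from 0.475 ± 0.109 to 7.41 ± 0.366 CPM, and the log2 fold change was 3.94 (SE 0.31, adjusted p = 7.5e-06).

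Stab1 (chr14:31139013-31168641, minus strand), a scavenger receptor for acetylated lipoprotein and matrix fragments, was raised more modestly. Its level was 35.1, 30.5 and 35.2 CPM on day 0 and 57.8, 56.7 and 64.1 CPM on day 21. The lowest treated mouse lay above the highest control, and the log2 fold change was 0.83 (SE 0.11, adjusted p = 0.00024). Of the exon bases of Stab1, 1.09% overlap Nt5dc2 on the opposite strand, and strand use in counting is not given in the sources used here.

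Cd163 (chr6:124304656-124330527, plus strand), the receptor that takes up haemoglobin bound to haptoglobin, remained scarce. It gave 6, 7 and 10 counts in the controls and 9, 16 and 33 in the treated mice, so that the groups overlapped and replicate 3 was the highest in each. The log2 fold change was 0.73 with a 95% interval from -0.47 to 1.93 (adjusted p = 0.3), an interval that held both 0 and the change of Stab1 and so did not separate them at this depth. The count of Mrc1 per count of Cd163 was 7.49 ± 1.98 on day 0 and 39.5 ± 14.2 on day 21, with no overlap (exact permutation p = 0.1, n = 3). The interval of Cd163 lies wholly below that of Mrc1, which runs from 2.56 to 3.38.

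Cd36 (chr5:17781690-17888801, minus strand), which imports long-chain fatty acids and binds oxidized lipoprotein, was the one scavenger receptor of the 5 that fell. Its level was 201, 322 and 539 CPM on day 0 and 179, 81.5 and 148 CPM on day 21. The mice of each group were widely spread, and the lowest control stood close above the highest treated mouse. The log2 fold change was -1.38 (SE 0.35, adjusted p = 0.0087). Of 7 adipocyte markers, Adipoq, Cfd, Plin1 and Cidec had this order over the controls, and the other 3, Lipe, Plin4 and Lep, did not. Adipoq, the adiponectin gene, gave 0, 14 and 51 counts in day 0 replicates 1, 2 and 3, against 0, 0 and 2 on day 21, and Cfd, the adipsin gene, gave 0, 70 and 265 against 1, 2 and 8. Over the 7 adipocyte markers the summed level ran from 18.0 to 76.9 CPM on day 0 and from 18.3 to 22.4 CPM on day 21. In the controls Lipe was at 16.0, 27.0 and 26.2 CPM and Plin4 at 1.6, 1.4 and 6.39 CPM, and Lep had at most 1 count. Without day 0 replicate 3, the log2 fold change of Cd36 was -0.96 (edgeR adjusted p = 0.025). With replicate 1 as the only day 0 mouse, in a fit that assumes it to vary like the treated mice, Cd36 was no longer called, at -0.56 (adjusted p = 0.2). The part of adipose RNA in the Cd36 difference was not tested.

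Among the sensors of lipid and dying cells, Trem2 (chr17:48346401-48354147, plus strand), a receptor for lipids and APOE particles, gave 2, 8 and 2 counts in the controls and 53, 222 and 103 in the treated mice. Every treated mouse was above every control, but the treated mice themselves spread from 3.75 to 13.2 CPM, with replicate 2 the highest. The log2 fold change was 4.35 (SE 0.62, adjusted p = 0.00028), and without day 21 replicate 2 it was 3.73, still called. Tyrobp, which encodes the signalling adaptor of TREM2, rose from 5.53 ± 1.96 to 37.4 ± 5.75 CPM (log2 fold change 2.74, adjusted p = 1e-05). Trem2 counts per Tyrobp count went from 0.0592 ± 0.0227 to 0.199 ± 0.0966 without overlap, and ranged on day 21 from 0.109 in replicate 1 to 0.301 in replicate 2.

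Of the 8 tested genes of the TREM family and its signalling, which include Tyrobp, 7 were higher and 0 lower, with a median log2 fold change of 1.23. The other leading gene was Treml4, a myeloid TREM-like receptor, at 2.69 (adjusted p = 0.011). It was low, at 1.28 ± 0.809 CPM on day 21.

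Mertk (chr2:128698956-128802894, plus strand), a receptor tyrosine kinase through which phagocytes engulf apoptotic cells, went the opposite way. Its level was 68.1, 64.6 and 73.4 CPM on day 0 and 37.5, 27.6 and 34.2 CPM on day 21. The groups were well apart with little spread in either, and Mertk fell by 1.05 on the log2 scale (SE 0.13, adjusted p = 0.00012). Its paralog Axl rose from 40.6 ± 1.96 to 143 ± 7.17 CPM (log2 fold change 1.81, SE 0.1, adjusted p = 1.7e-06). In raw counts Axl stood below Mertk in each control, at 0.542 to 0.629 counts per Mertk count, and above it in each treated mouse, at 4.00 to 4.92. The ratio does not depend on library scaling, but the genes differ in length, so it compares the libraries and not the levels of the transcripts.

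The bridging ligands of these receptors were unequal. Pros1, the protein S gene, rose from 31.0 ± 7.5 to 91.8 ± 8.77 CPM (log2 fold change 1.57, adjusted p = 3.9e-05). Gas6, the ligand shared by the TAM receptors TYRO3, AXL and MERTK, was 429 ± 11.6 CPM on day 0 and 473 ± 21.6 on day 21, a log2 fold change of 0.14 (95% interval -0.09 to 0.37, adjusted p = 0.3). Over the 16 tested genes of the TAM receptors and apoptotic cell uptake, a list that does not hold Mertk itself, 11 were higher and 0 lower, with a median log2 fold change of 1.04. Havcr1, the phosphatidylserine receptor of injured tubule cells known as KIM-1, led the list and rose from 3.96 ± 3.62 to 1050 ± 180 CPM (8.07, adjusted p = 1.9e-06). Anxa1, a phospholipid-binding protein gene, followed at 2.03 (adjusted p = 1.8e-05).

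Gpnmb (chr6:49036546-49070929, plus strand), which encodes a transmembrane glycoprotein of lysosome-rich phagocytes, gave 0, 6 and 3 counts in the controls and 62, 158 and 76 in the treated mice. The controls were at or close to the detection floor, and replicate 2 was again the highest treated mouse. Its log2 fold change, 4.41 (SE 0.61, adjusted p = 0.00024), was the largest of the 10, although its 95% interval, 3.05 to 5.78, overlaps those of Trem2 and Msr1. Of the 4 tested MiT transcription factors, a family known for driving lysosomal genes, Mitf rose (log2 fold change 0.63, adjusted p = 0.0068) and the other 3 were not called. Without day 0 replicate 1 Mitf was not called, at 0.50, and Tfec was called lower, at -0.63, whereas with that mouse as the only control Tfec was called higher, at 0.87. Under library size alone 3 of the 4 were called higher.

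Apoe (chr7:19696109-19699188, minus strand), the lipid-carrying apolipoprotein gene, was the most abundant transcript of the 10 on day 21. Its level was 431, 301 and 248 CPM on day 0 and 887, 1760 and 1280 CPM on day 21. The groups did not overlap, and the log2 fold change was 2.00 (SE 0.26, adjusted p = 0.00016). Abca1, the transporter that loads cholesterol onto apolipoproteins, rose from 23.2 ± 13.7 to 82.9 ± 8.08 CPM (1.85, adjusted p = 0.0012), and without day 0 replicate 3, the highest control, its log2 fold change was 2.40.

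The 19 tested genes of cellular lipid storage and export had no common direction, with 5 higher, 5 lower and a median log2 fold change of 0.19. Pltp, the phospholipid transfer protein gene, rose by 1.41 on the log2 scale (adjusted p = 5.1e-05), and Rxra, a partner of lipid-sensing nuclear receptors, fell by 0.82 on the log2 scale (adjusted p = 0.00017). Ppard, a fatty-acid-sensing nuclear receptor gene, was also called lower at -1.06 (adjusted p = 0.045), but the call was lost in 7 of 10 other settings and its value was -0.35 without day 0 replicate 3. Under scaling by library size alone 8 of the 19 were called higher and 0 lower, so the 5 falls depend on the scaling.

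Lpl (chr8:68880491-68907448, plus strand), the lipase that frees fatty acids from circulating triglyceride, had the largest fall of the 10. It gave 8035, 13037 and 13886 counts in the controls and 1808, 2153 and 2196 in the treated mice, or 806, 1070 and 1430 CPM against 128, 128 and 135. The treated mice were nearly equal, the controls spread, and the gap between the groups exceeded the spread of either. The mean was 8.47-fold lower on day 21, with a log2 fold change of -3.08 (SE 0.20, adjusted p = 2.4e-06). As for Cd36, the controls had the same order in 4 of the 7 adipocyte markers. Day 0 replicate 1, in which Lpl was at 806 CPM, had 0 counts of Adipoq, Plin1, Cfd and Lep, 4 of Cidec, 16 of Plin4 and 160 of Lipe. With that mouse as the only control, the log2 fold change of Lpl was -2.62 (adjusted p = 3.1e-06). The part of adipose RNA in the Lpl difference was not tested. Counts of Lpl per count of Cd36 fell from 3.33 ± 0.675 to 1.07 ± 0.452, and counts of Apoe per count of Lpl rose from between 0.173 and 0.535 to between 6.94 and 13.7, with no overlap in either ratio.

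The genes that control LPL were more often lower than higher, but not all of them fell. Of 11 tested, 1 was higher and 5 lower, beside 19.6% and 15.5% of all genes tested. The median log2 fold change was -0.64, beside 0.03 over all genes tested. Scaling by library size alone left 1 lower and put the median of the list at -0.25, beside 0.42 over all genes tested. Angptl4, a secreted inhibitor of LPL, fell from 243 ± 25.9 to 81.2 ± 29 CPM (log2 fold change -1.58, adjusted p = 0.00038) and stayed called in each of the 10 other settings. Gpihbp1, which carries LPL to the capillary surface, was 11.4 ± 1.78 and 12.3 ± 4.53 CPM (0.11, 95% interval -0.5 to 0.72, adjusted p = 0.77). Angptl8, another inhibitor, rose by 2.18 on the log2 scale to 2.06 ± 0.791 CPM (adjusted p = 0.0038). Apoc3, an inhibitory apolipoprotein gene, was called lower at -0.81 (adjusted p = 0.046), a call lost in 7 of the 10 settings, and the activator genes Apoc2 and Apoa5 had 0 counts in every mouse.

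**Figure D2:**
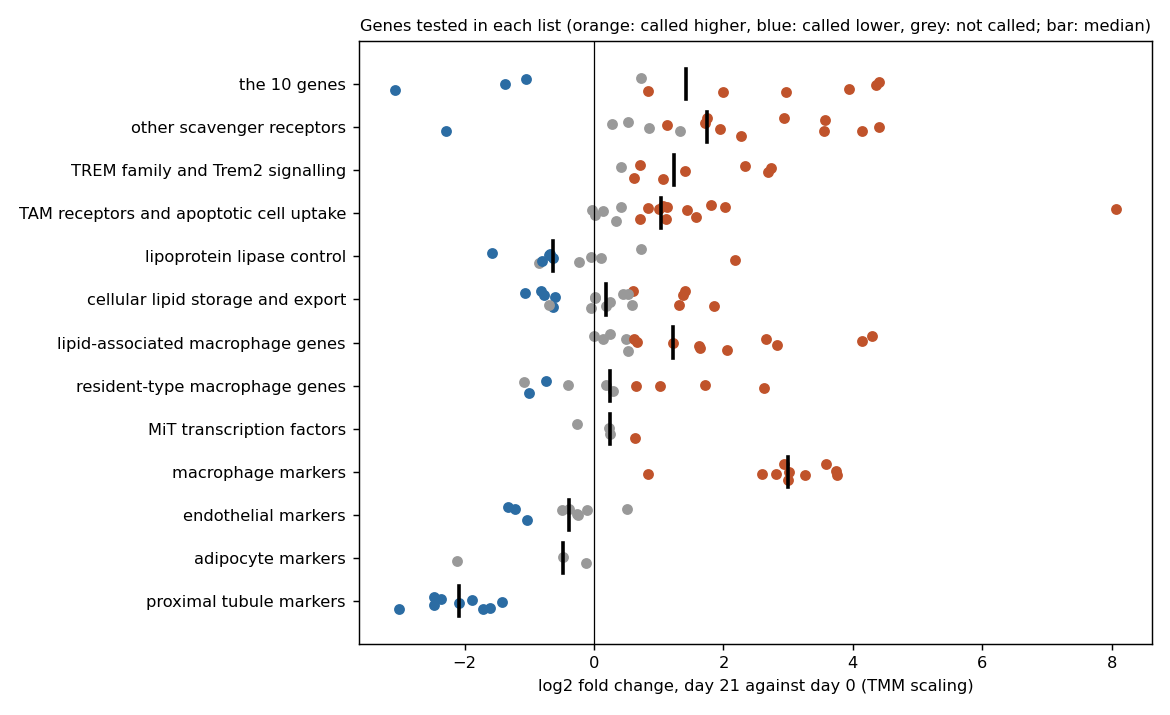
Each point is the log2 fold change (linear axis, day 21 against day 0, TMM scaling) of 1 tested gene in the list named at the left, scattered vertically only for legibility, and the black bar is the median of the list. The 10 genes lie on both sides of 0, the 10 macrophage markers all lie above it and the 9 proximal tubule markers all below it.

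Of 15 other scavenger receptors tested, 10 were higher and 1 lower, with a median log2 fold change of 1.75. Scara3, a class A scavenger receptor, rose from 0.592 ± 0.484 to 13.2 ± 4.68 CPM (4.4, adjusted p = 5.1e-05), and Clec7a, the beta-glucan receptor dectin-1, from 1.14 ± 0.76 to 20.9 ± 3.29 (4.14, adjusted p = 9.6e-06). Stab2, the paralog of Stab1 on sinusoidal endothelium, fell from 8.59 ± 5.42 to 1.73 ± 0.856 CPM (-2.29, adjusted p = 0.005), opposite to Stab1. Marco, an alveolar and marginal-zone macrophage receptor gene, had 0 counts in all 6 mice.

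Of 15 tested genes known from lipid-associated macrophages, 10 were higher and 0 lower, with a median of 1.22. Spp1, the osteopontin gene that injured tubules also express, led with 959 ± 579 to 18800 ± 2110 CPM (4.29, adjusted p = 1.6e-05), and Clec7a belongs to this list too. Of 10 genes of resident-type macrophages, 4 were higher and 2 lower, with a median of 0.24. The chemokine genes Ccl8 (2.63, adjusted p = 0.0037) and Pf4 (1.72, adjusted p = 0.0026) rose, while Maf, a transcription factor gene (-1.01, adjusted p = 3.8e-05), and Selenop, a selenium carrier gene (-0.74, adjusted p = 0.0071), fell. The Selenop call was lost in 3 of 10 other settings, among them library size alone (-0.36) and the fit without day 21 replicate 2 (-0.57). On day 0 Selenop was at 2550 ± 361 CPM and Maf at 272 ± 8.56 CPM. Each was above the summed level of the 10 macrophage markers in the controls, 162 to 204 CPM. The part of macrophage RNA in the falls of Selenop and Maf was not tested.

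Within each list, markers of macrophages, of proximal tubule and of fibroblasts moved in a common direction. Those of other cell types were mixed or mostly not called. All 10 macrophage markers were higher on day 21, with a median log2 fold change of 3.0 and a summed level of 162 to 204 CPM on day 0 against 929 to 1070 on day 21. They ranged from 0.83 for Csf1r, the receptor for macrophage growth factor, to 3.74 for Aif1 and 3.75 for Fcgr1, an IgG receptor gene. All 9 proximal tubule markers were lower, led by Kap (-3.01) and Slc34a1 (-2.47), and their summed level was 21600 to 32900 CPM on day 0 and 3680 to 5310 on day 21. Of 9 endothelial markers 0 were higher and 3 lower, led by the VEGF receptor genes Kdr (-1.33) and Flt1 (-1.22), with sums of 692 to 774 and 362 to 588 CPM. All 7 fibroblast markers were higher, led by Col1a1 (4.35) and Col3a1 (4.03), from 200 to 340 CPM in sum on day 0 to 1140 to 2160 on day 21, with 5 to 7 called when single mice were left out. Of 5 lymphatic endothelial markers Pdpn rose (2.58) and Prox1 fell (-0.84), a call lost under library size alone (-0.45) and without day 0 replicates 2 and 3 (-0.54). Of 7 dendritic cell markers Ccr7 (2.52) and H2-Ab1 (2.37) rose and 0 fell, and under library size alone 5 were called higher. Of 4 neutrophil markers tested Csf3r rose (1.19), and S100a9 (-1.99) and S100a8 (-1.97) fell. The part of each cell type in the changes of the 10 genes was not tested.

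To set the 10 genes against macrophage mRNA as a whole, libraries were rescaled to the geometric mean count of the 10 macrophage markers in place of TMM, and the same test was run. On this scale the median of all genes tested was -3.04, 94.2% of them were called lower and 0.826% higher. Trem2 (1.42, SE 0.59, adjusted p = 0.017) and Gpnmb (1.51, SE 0.64, adjusted p = 0.019) were called higher, so that their fitted rise exceeded the marker mean. Both had few counts in the controls and passed the filter through the day 21 mice. Their calls therefore add little to the comparison with the 0.826%. Mrc1 kept close to the markers at -0.10 (95% interval -0.8 to 0.59), and Msr1 was at 0.94 (95% interval -0.17 to 2.04), neither called. Apoe (-1.16), Stab1 (-2.26) and Cd163 (-2.27) were lower, as were Mertk (-4.13), Cd36 (-4.36) and Lpl (-6.11).

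The marker scale was less steady than the TMM scale. Of the markers that set it, Csf1r was called lower, at -2.24, and Fcgr1 higher, at 0.81. Of the 15 tested genes of lipid-associated macrophages, 2 were also called higher on it, Clec7a (1.23) and Spp1 (1.06), and 11 lower. Without day 21 replicate 2, the highest mouse for both genes, neither Gpnmb (1.14, adjusted p = 0.13) nor Trem2 (0.88, adjusted p = 0.218) was called, nor were they without day 0 replicate 1 (1.11 and 1.32, adjusted p = 0.0841 and 0.0922), and Trem2 was not without day 0 replicate 3 (1.15). With Csf1r, Adgre1 and Mpeg1 as the only markers, Apoe was at -0.11 (adjusted p = 0.695), Mrc1 at 0.88 (adjusted p = 0.00122) and Msr1 at 1.88 (adjusted p = 0.00041). Without day 0 replicate 1 Apoe was at -0.56 and also lost its call, and Msr1 gained one at 1.38 (adjusted p = 0.0132). The 5 lower calls of Stab1, Cd163, Mertk, Cd36 and Lpl were kept in all the alternatives of this scale in which each was tested. In the main fit 94.2% of all genes tested were called lower, so a lower call is not particular to these genes. Stab1 (-2.26) and Cd163 (-2.27) lay above the median of all genes, -3.04, and Mertk (-4.13), Cd36 (-4.36) and Lpl (-6.11) below it.

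**Figure D3:**
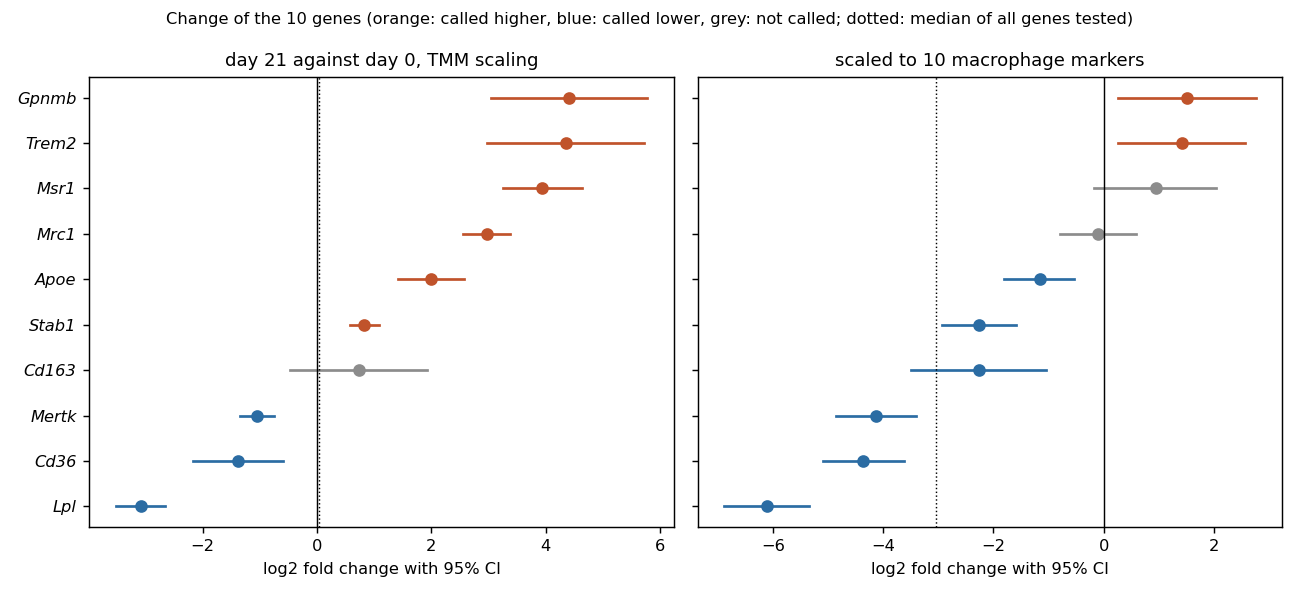
Log2 fold change of each gene with its 95% confidence interval (edgeR, n = 3 mice per group), on the TMM scale at the left and on the macrophage marker scale at the right, with the dotted line at the median of all genes tested (0.03 and -3.04). Trem2 and Gpnmb are the genes to the right of 0 and called on both scales, and Mrc1 lies near 0 on the marker scale.

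The order of the levels changed between the groups. Per kilobase of exon, Apoe (153 ± 44.0), Lpl (105 ± 29.9) and Cd36 (98.6 ± 47.7 CPM per kb) led on day 0, with overlapping ranges over mice. Mertk (15.8 ± 1.02), Stab1 (3.27 ± 0.261) and Mrc1 (0.816 ± 0.0785) followed, each apart from its neighbours. Cd163, Msr1, Trem2 and Gpnmb lay at 0.135 or less, and adjacent ranges overlapped except between Cd163 and Msr1. With the length of the principal transcript in place of all exon bases, Lpl (268 ± 76.1) stood above Apoe (232 ± 66.9), and Cd163 (0.167 ± 0.0578) fell below Msr1 (0.334 ± 0.077) and Trem2 (0.327 ± 0.242), so the order of these low genes depends on the length used.

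On day 21 Apoe (612 ± 205 CPM per kb) stood alone at the top, followed by Cd36 (37.9 ± 13.9) and Lpl (12.4 ± 0.386). Mertk (7.63 ± 1.16), Mrc1 (6.39 ± 1.21) and Stab1 (5.79 ± 0.388) followed, and the range of Mrc1 overlapped those of the other two, which did not overlap each other. Trem2 (1.57 ± 0.988), Msr1 (1.17 ± 0.0583) and Gpnmb (0.945 ± 0.436) also overlapped, and Cd163 (0.22 ± 0.133) was the lowest. The order of the means was the same with either length, but the gaps were not. By the principal transcript, Mertk (7.69 ± 1.17), Mrc1 (7.57 ± 1.43), Stab1 (7.44 ± 0.499) and Trem2 (7.13 ± 4.49) were nearly level. Msr1 (5.2 ± 0.26) came next, and Gpnmb (1.66 ± 0.767) and Cd163 (0.273 ± 0.165) stayed lower.

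The mice of 1 group differed from each other in a way that joined some of the genes. Among the treated mice, replicate 2 was the highest in Gpnmb, Trem2 and Apoe and the lowest in Cd36, Mertk and Stab1, and replicate 3 was the highest in Mrc1, Cd163, Stab1 and Lpl. With 3 mice in a group, these orders are given as a description with no test. Among the controls, replicate 3 was the highest in Cd36, Lpl, Mertk and Cd163, narrowly so in Stab1, and the lowest in Apoe.

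**Figure D4:**
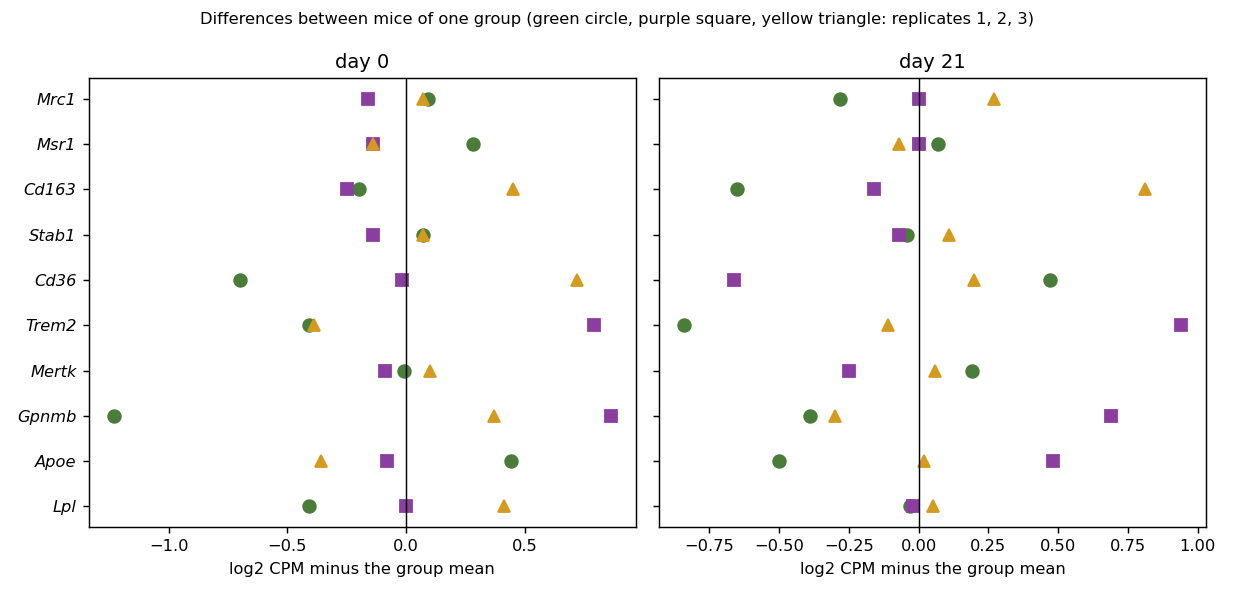
Deviation of each mouse from its group mean in log2 CPM (linear axes, prior count of 2), with day 0 at the left and day 21 at the right (n = 3 mice each). On day 21 the square, replicate 2, lies furthest to the right in Trem2, Gpnmb and Apoe, and on day 0 the triangle, replicate 3, lies furthest to the right in Cd36 and Lpl.

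For each gene, the protein-coding gene with the most similar profile was found among 13896 candidates, as the smallest root mean square difference of centred log2 CPM over the 6 mice. Mertk was nearest to Nadk2 (0.039) and Stab1 to Vsig10 (0.041), and these distances were the smallest of the 10. Mrc1 was nearest to Slc25a24 (0.071), Msr1 to Clcf1 (0.109), Apoe to Tpbg (0.114), Lpl to Aadat (0.142) and Cd36 to Ldhd (0.151). Cd163 was nearest to Tmem47 (0.196), Gpnmb to Clec4n (0.211) and Trem2 to Gxylt2 (0.259). The distance is in log2 units and follows mostly the step between the groups, which many genes share.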

How the data were processed

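Kidney mRNA of 3 day 0 and 3 day 21 mice was sequenced by the authors as paired-end TruSeq libraries, and the deposited values are raw counts per gene, not normalized, with each mouse separate. The submitters' processing notes name TopHat and the mm10 build. The counting program and its strand setting are not given in the sources used here. Gene identifiers matched GENCODE mouse release M21 on GRCm38, which supplied symbols and positions. All 6 columns were mapped by their labels, and 28536 of the 55450 genes had no count in any mouse.

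Counts were analysed with edgeR 4.0.16 in R 4.3.3. The filter was filterByExpr (a minimum count of 10 and a total of 15). TMM set the library sizes, and a quasi-likelihood test without a block compared the groups. The second scale used the geometric mean count of 10 macrophage markers, with 0.5 added. Alternatives used DESeq2 1.42.0, limma-voom (limma 3.58.1), other scalings, filters, thresholds and marker sets, a block, and each mouse left out. The fit without day 0 replicates 2 and 3 was chosen after seeing the data. In data simulated from these counts, edgeR called 88 of 100 genes changed 3-fold, 15 of 100 changed 1.5-fold, and 4 unchanged genes. Only those genes were changed there, equally up and down, whereas 35.1% of genes were called in the real data. The figures therefore do not give the error rates of the test here. Floors of 3 counts cover counting error only. Same-group libraries had chi-square values of 6.78 to 23.6 per gene, so none was a duplicate. The labels name no batch.

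The 10 genes and all lists were chosen with earlier results of these data known, and no value adjusted within a list is given. The text names the 10 genes, their direct partners Tyrobp, Gas6, Pros1, Gpihbp1, Angptl4, Abca1 and Axl, and from each list the 2 called genes with the largest change in each direction. Other genes named (Marco, Apoc2, Apoa5, Csf1r, Adipoq, Plin1, Cfd, Cidec, Lipe, Plin4, Lep and Tfec) were chosen after their values were seen. Promoters came from RefSeq. Figures were drawn in Python 3.11.15.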

Additional observations from a re-analysis of the deposited data

How the results depend on the processing

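On the TMM scale, 158 of 159 alternative values of single genes kept their direction and their side of the threshold. The exception was Cd36 without day 0 replicates 2 and 3 (-0.56, adjusted p = 0.2). The number of the 10 genes called stayed between 8 and 9. With these 2 mice left out Gpnmb was fitted at 9.47, against a control library at 0 counts, which is no bound. Trem2 ranged from 3.73 to 5.23, Apoe from 1.61 to 2.40, Lpl from -3.28 to -2.62, Mertk from -1.15 to -0.67 and Cd163 from 0.13 to 1.11. Library size alone moved the median of all genes to 0.42 and upper quartile scaling to 0.12, from 0.03.

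On the macrophage marker scale, 104 of 119 alternative values were unchanged in direction and call. The number called higher, 2, became 4 with Csf1r, Adgre1 and Mpeg1 alone and 1 with limma-voom, where Trem2 was at 1.20 (adjusted p = 0.0544), and it ranged from 0 to 2 with single mice left out. Mrc1, at -0.10, turned to 0.88 with those 3 markers alone and 0.067 without Cd68 and Aif1, and ranged from -0.36 to 0.21 with single mice left out, above 0 without day 0 replicate 1 (0.21) or day 21 replicate 1 (0.005). Msr1 gained a call without Cd68 and Aif1 (1.09). The cause was not tested, beyond the change of markers or mice itself. Cd163 could not be fitted where genes needed a mean of at least 50 counts.

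Mice that share a replicate number deviated together little, with correlations of -0.02, 0.17 and 0.09, so the numbers were not taken as pairs. With a replicate block 9 of the 10 genes were called on the TMM scale and 8 on the marker scale, the same numbers as without it. Msr1, Gpnmb and Trem2 had 0 to 8 counts per mouse on day 0 and Cd163 6 to 10, so their fold changes rest on few counts, and that of Cd163 has no established direction.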
